A study of Mus musculus with 4 samples.

Results

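Bile acid synthesis and export was followed through 10 genes in liver and white adipose tissue (WAT): Cyp7a1, Cyp8b1, Cyp27a1, Cyp7b1, Baat, Slc27a5, Slc10a1, Abcb11, Abcc3 and Abcc4. They were taken by gene name from the probes of the arrays and are 10 of the 22327 genes that could be named there. All 10 were found, with 12 probes on 21 spots. The study compared wild-type mice with mice labelled Pnpla7-/-, a knockout of a lysophospholipase gene, and by its title asks how phosphatidylcholine breakdown in liver provides choline. There were 4 groups: wild-type liver, Pnpla7-/- liver, wild-type WAT and Pnpla7-/- WAT, all from C57BL/6N animals aged 4 weeks. Each group was 1 Agilent one-colour array hybridised with RNA pooled in equal amounts from 5 animals. The fat depot, the sex of the animals and the deleted part of Pnpla7 are not stated in the labels, and the extraction protocol names liver for all 4 samples. With 1 array a group there was no replicate check, no test across samples and no p-value. A difference is counted below where it reached 2-fold, and its error comes from the scanner software's error model, which covers the spot and not the animals. Levels are multiples of the 75th percentile of signal on the array, written P75, and compare arrays within a gene only.

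In mouse liver, bile acids are made from cholesterol by hepatocytes. The classic pathway starts with the hydroxylase Cyp7a1, its rate-limiting enzyme, and Cyp8b1 then directs part of the flow to cholic acid. The alternative pathway starts with the mitochondrial hydroxylase Cyp27a1, followed by Cyp7b1. Slc27a5 links bile acids to coenzyme A and Baat joins them to taurine or glycine. Slc10a1 takes conjugated bile acids up from blood, Abcb11 pumps them into bile, and Abcc3 and Abcc4 pump them back across the basolateral membrane.

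The probes that carry most of the results below are shown first, 5′ to 3′ as read from the scanner files. Cyp8b1 had the lowest ratio in liver, Cyp27a1 was printed on 10 spots, Slc27a5 is shown with the probe of lower signal of its pair, and the Slc10a1 probe is the one used for that gene. All positions are on the mm9 build of the files, which give the strand and the base of the transcript where a probe starts but no exon.
Cyp8b1: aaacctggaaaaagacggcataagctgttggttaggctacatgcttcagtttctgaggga
Cyp27a1: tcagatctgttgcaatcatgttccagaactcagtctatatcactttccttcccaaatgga
Slc27a5: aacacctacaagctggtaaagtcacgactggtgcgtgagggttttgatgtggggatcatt
Slc10a1: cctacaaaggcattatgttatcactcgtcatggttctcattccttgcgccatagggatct
The Cyp8b1 probe lies at chr9:121824595-121824654 on the minus strand and starts at base 769 of NM_010012. The Cyp27a1 probe lies at chr1:74782203-74782262 on the plus strand, at base 784 of NM_024264. The Slc27a5 probe lies at chr7:13573924-13573983 on the minus strand, at base 2041 of NM_009512, and the second probe of that gene starts at base 2264. The Slc10a1 probe lies at chr12:82061470-82061529 on the minus strand, at base 598 of NM_011387. The other probes lie on chromosome 4 (Cyp7a1 at 6193456 to 6193515, Baat at 49502933 to 49502992), chromosome 3 (Cyp7b1, 17972286 to 17972345), chromosome 2 (Abcb11, 69076365 to 69076424), chromosome 11 (Abcc3, 94204612 to 94204671) and chromosome 14 (Abcc4, 118882104 to 118882163).

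Slc10a1 had a further probe whose accessions in the files belong to 4 RefSeq genes. It read 178 and 146 P75 in wild-type and Pnpla7-/- liver and 160 and 168 P75 in WAT. The gene's own probe read 25.4 P75 in wild-type liver and, on the log2 scale, 4.67 and 4.08 in the liver pools and -4.78 and -5.96 in the WAT pools. The further probe thus gave nearly the same signal in both tissues where the probe of Slc10a1 alone differed 697-fold, so probes annotated to more than 1 RefSeq gene were left out throughout, a choice made after these values were seen.

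Between 65.5% and 72.6% of spots were well above background, 0 were saturated, and the 75th percentile was between 193 and 271 times the mean negative control. The 1 probe of Pnpla7 read 9.04 and 7.98 P75 in wild-type and Pnpla7-/- liver (log2 ratio -0.18 ± 0.20, model error) and 0.739 and 0.372 P75 in WAT (-0.99 ± 0.20). Since the deleted part is not known, that probe checks nothing, and the arrays are called labelled knockout below. All 25 hepatocyte markers were above background on both liver arrays, and all 14 adipocyte markers on both WAT arrays. Presence alone did not separate the tissues. In liver 11 adipocyte markers were above background in wild type and 10 in the labelled knockout, with Adipoq, Lep and Cfd on neither array. In WAT 25 and 24 hepatocyte markers were. Adipocyte markers had median log2 levels of 6.40 and 6.52 in WAT against -1.87 and -0.89 in liver. Hepatocyte markers had 6.93 and 6.61 in liver against -0.77 and -1.34 in WAT.

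In labelled-knockout liver, 8 of the 10 bile acid genes were lower than in wild type, most of them modestly. Cyp8b1 was the 1 gene at least 2-fold lower and Abcc4 the 1 gene at least 2-fold higher, while Cyp7a1 differed by less than its error. The median log2 ratio of the 10 genes was -0.50, or 71.0% of wild type, against -0.03 for all 15351 genes measured in liver. A 2-fold difference was reached by 2.61% of all genes in either direction, by 0.86% as a lower and 1.75% as a higher level, and a ratio below 0 by 55.7%. Of the genes past 2-fold in liver 67.0% were higher, but 29.8% with normexp background correction and an offset of 50 and 7.11% with normexp and no offset. Fewer cells of a type and less RNA per cell cannot be told apart in such pools.

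**Figure D1:**
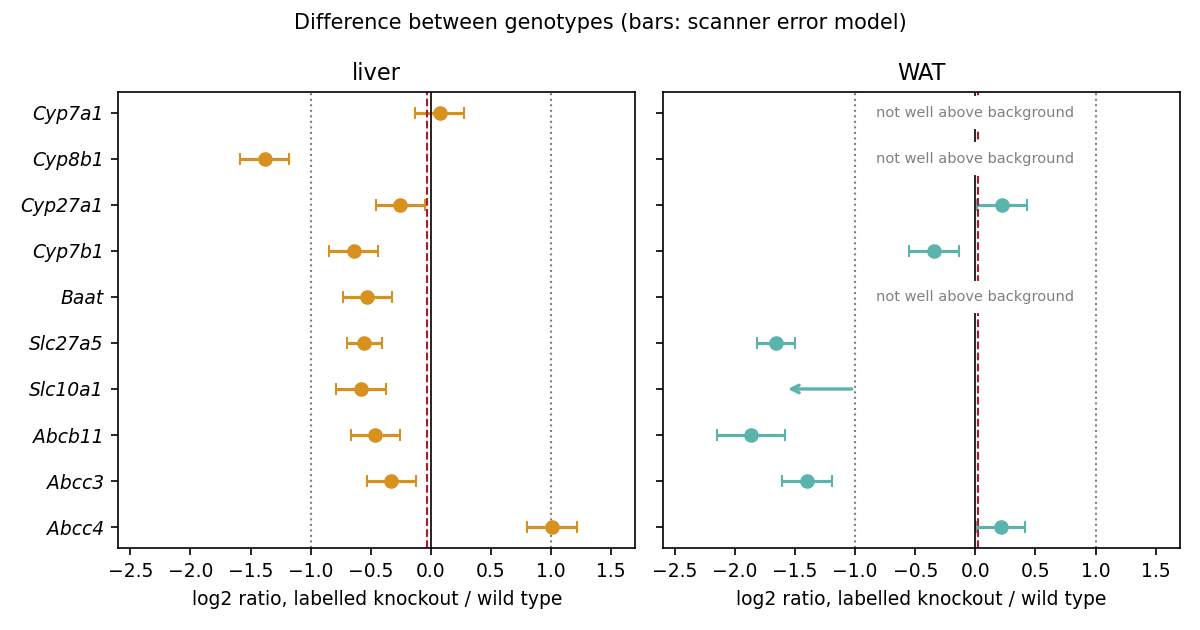
Log2 ratio of labelled knockout to wild type for each gene in liver (left) and WAT (right), with the scanner model error as bars, 1 array a group. Dotted lines mark 2-fold and the dashed line the median of all genes; the arrow for Slc10a1 in WAT is a bound, and Cyp8b1 (-1.38) and Abcc4 (1.01) are the liver genes past 2-fold.

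The enzymes of the classic pathway differed from each other in liver. Cyp7a1 read 5.14 P75 in the wild-type pool and 5.41 P75 in the labelled-knockout pool. Its log2 ratio of 0.07 ± 0.20 was smaller than its error. Cyp8b1 read 1.84 P75 in the wild-type pool and 0.706 P75 in the labelled-knockout pool, which is 38.4% of wild type. It was 2.61-fold lower, a log2 ratio of -1.38 ± 0.20, and 0.319% of all liver genes had a ratio as low or lower. Set against the log2 ratio of Cyp7a1 on the same arrays, that of Cyp8b1 differed by -1.46.

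Both enzymes of the alternative pathway were lower by less than 2-fold. Cyp7b1 read 1.83 P75 in wild-type liver and 1.17 P75 in the labelled-knockout pool, a log2 ratio of -0.64 ± 0.20. It had the second lowest ratio of the 10 genes. Cyp27a1 was printed on 10 spots, which gives the spread within an array directly. In wild-type liver its spots lay between 1.75 and 1.93 on the log2 scale (mean 1.82 ± 0.07, SD of 10 spots), and in labelled-knockout liver between 1.45 and 1.65 (mean 1.57 ± 0.07). The log2 ratio in liver was -0.26. In WAT the order was the other way round. There the spots lay between -2.44 and -2.26 in wild type (mean -2.35 ± 0.06). In the labelled knockout they lay between -2.26 and -2.03 (mean -2.13 ± 0.08), a log2 ratio of 0.22. Repeat spots share 1 pool of RNA and 1 labelling, so this spread says nothing about animals. Probes measured on 10 spots had a median SD of spot ratios of 0.04 in liver (232 probes) and 0.05 in WAT (237 probes). How many of them had spots apart between the arrays was not counted. Both ratios of Cyp27a1 were a little larger than 1 model error, which is 0.20 in liver and 0.21 in WAT and rests on a preset multiplicative error of 0.1. A ratio as low or lower was held by 17.4% of all liver genes, and one as high or higher by 25.1% of WAT genes. With normexp and an offset of 50 the liver ratio was -0.19, level with the median of -0.19 for all liver genes.

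**Figure D2:**
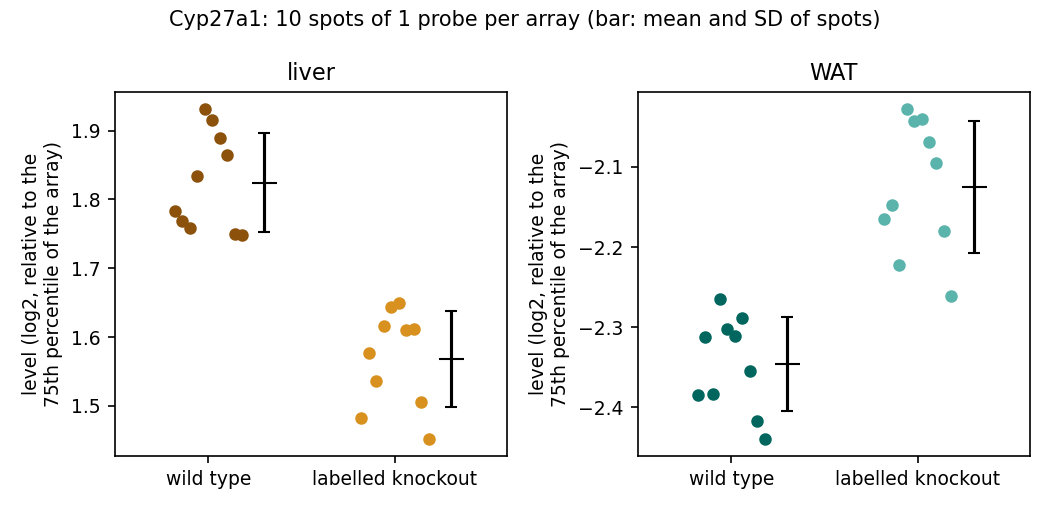
Levels of the 10 Cyp27a1 spots on each array (log2, relative to the array's 75th percentile; the axes of the panels differ), with mean and SD of spots beside them. Wild-type spots are higher in liver (mean 1.82 against 1.57) and lower in WAT (mean -2.35 against -2.13).

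Conjugation, uptake and canalicular export were all lower in labelled-knockout liver, by similar amounts. Slc27a5 read 96.5 and 133 P75 with its probes in wild type and 62.6 and 95.0 P75 in the labelled-knockout pool. Its probes gave log2 ratios of -0.62 and -0.48, with a mean of -0.55 ± 0.14. Baat read 3.26 P75 in the wild-type pool and 2.26 P75 in the labelled-knockout pool, a log2 ratio of -0.53 ± 0.20. These are the enzymes that activate bile acids and conjugate them. Slc10a1, the uptake carrier, was at 4.67 in the wild-type and 4.08 in the labelled-knockout pool on the log2 scale, a ratio of -0.58 ± 0.20. Abcb11, the pump of the bile canaliculus, read 40.3 and 29.2 P75, a ratio of -0.46 ± 0.20. These 4 genes stood at between 66.8% and 72.6% of wild type, and none reached 2-fold.

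The exporters of the basolateral membrane went in opposite directions in liver. Abcc3 read 14.4 P75 in the wild-type pool and 11.4 P75 in the labelled-knockout pool, a log2 ratio of -0.33 ± 0.20. Abcc4 read 0.266 P75 in the wild-type pool and 0.535 P75 in the labelled-knockout pool, or 2.01-fold higher with a range of 1.74 to 2.32-fold over 1 model error. It was the 1 bile acid gene higher by more than its error, and 1.69% of all liver genes had a ratio as high or higher. The call stands at the limit of 2-fold. The log2 ratio of 1.01 was 0.72 with normexp background correction and an offset of 50, 0.78 with normexp and no offset, and 0.94 with quantile normalization, all under 2-fold.

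**Figure D3:**
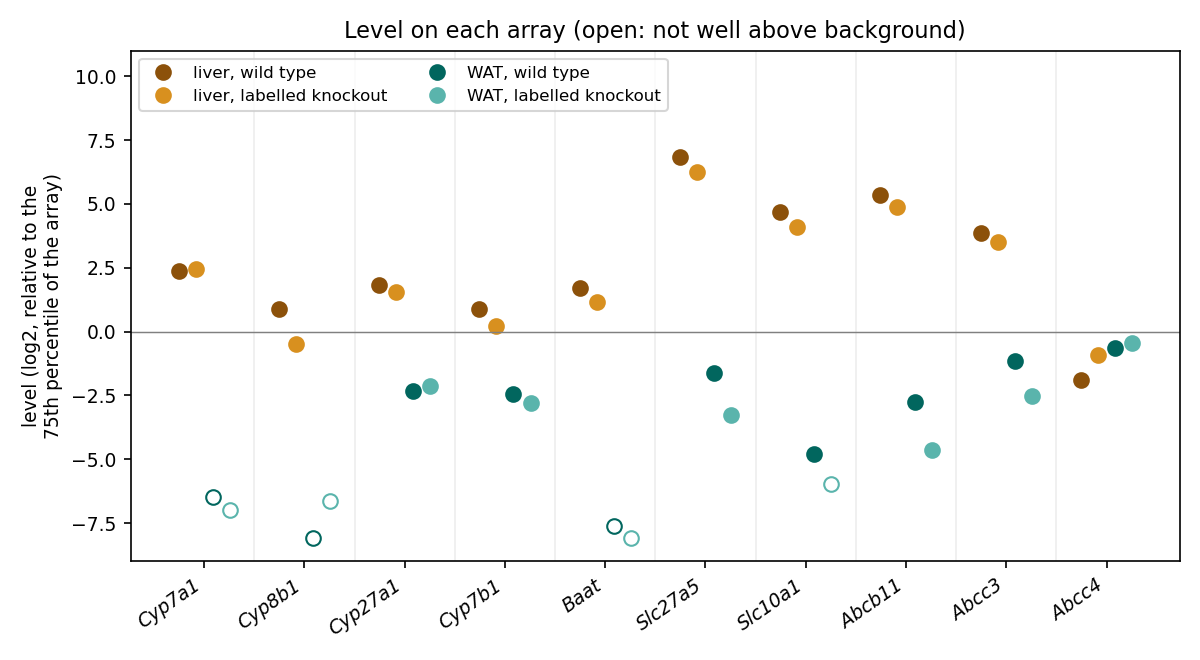
Level of each bile acid gene on the 4 arrays (log2, relative to the array's 75th percentile, 1 point per array; mean of 2 probes for Slc27a5), with open points where the probe was not well above background. Levels compare arrays within a gene and not genes with each other, since probes differ in brightness; 9 genes are higher in liver and Abcc4 is higher in WAT.

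Other genes of the pathway were read from lists of synthesis enzymes, transporters and regulators. Of 15 measured further synthesis enzymes, 14 were lower in labelled-knockout liver, against 55.7% of all genes. Of these enzymes 0 reached 2-fold, with a median log2 ratio of -0.24. Akr1d1, the reductase that sets the steroid ring of bile acids, was lowest at -0.90 ± 0.20, followed by Cyp2c70, which makes muricholic acids in mice, at -0.69 ± 0.20. Hsd3b7, the dehydrogenase used by both pathways, was at -0.57 ± 0.20. Slc27a2 and Acox2 were at -0.13 and -0.15. With normexp and an offset of 50 these read -0.04 and -0.06, above the median of -0.19 for all liver genes. How many of the 15 enzymes lay below that median was not counted. Of 16 measured further transporters 10 were lower, near the 55.7% of all genes, 1 reached 2-fold and the median was -0.25. Slco1a1, an organic anion uptake carrier, was 4.79-fold higher, with a log2 ratio of 2.26 ± 0.20 and levels of -1.39 in wild type and 0.87 in the labelled knockout. Abcg8, a sterol exporter of the canaliculus, was at -0.73 ± 0.20. Abcc2 and Abcb4, which export conjugated anions and phosphatidylcholine into bile, were at 0.10 and 0.11. Slc51b, a subunit of the basolateral bile acid exporter, was at 0.55 ± 0.21 (0.18 with normexp and an offset of 50), while its partner Slc51a was not well above background on any array.

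The regulators of bile acid synthesis lay close together in liver. Of 18 measured, 17 were lower, against 55.7% of all liver genes, and 0 reached 2-fold, with a median of -0.21. Nr1h4, the bile acid receptor FXR, was at -0.19, and Nr0b2, the repressor it induces, at -0.10. Fgfr4 and Klb, which together receive the ileal hormone FGF15, were at -0.20 and -0.19. The model errors of these 4 ratios were between 0.14 and 0.20. With normexp and an offset of 50 they were at -0.10, -0.09, -0.18 and -0.12, above the median of -0.19 for all liver genes. Nr1h4 was at -0.03 with quantile normalization. The lowest of the regulators were the xenobiotic receptor Nr1i3 (-0.44) and the clock repressor Nr1d1 (-0.42). In the detoxification list Cyp2b10, a xenobiotic hydroxylase, was 2.68-fold lower and Cyp3a11, a hydroxylase that acts on bile acids, was 1.69-fold lower (log2 ratio -0.75, or -0.96 with probes of several genes kept). Near-identical copies in these families can share probe signal, so both values are uncertain as to the gene.

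**Figure D4:**
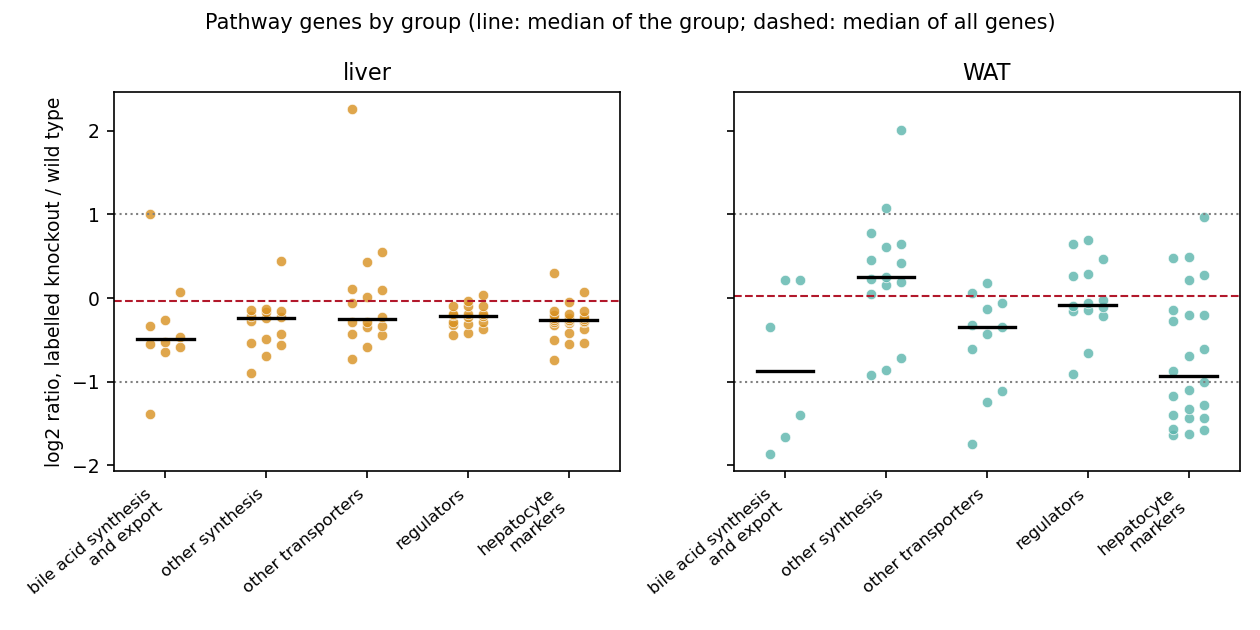
Log2 ratio of labelled knockout to wild type for the bile acid genes, further synthesis enzymes, transporters and regulators, and hepatocyte markers, 1 point per measured gene, in liver (left) and WAT (right). Black lines are list medians and the dashed line is the median of all genes; in liver the medians of these 5 sets lie between -0.50 and -0.21, and in WAT between -0.94 and 0.26.

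Marker lists of other cell types and states also differed between the liver pools. Hepatocyte markers had a median log2 ratio of -0.26, with 23 of 25 below 0, against 55.7% of all genes, and 0 at 2-fold. Their summed level was 3569 P75 in the wild-type pool and 2988 P75 in the labelled-knockout pool. Biliary markers had a median of -0.20 over 7 measured genes (summed level 1.41 and 1.27). Of 11 measured proliferation markers 11 were at least 2-fold higher (summed level 3.68 and 10.4). Macrophage markers had a median of 0.12 over 14 genes, with 2 at least 2-fold higher (summed level 33.7 and 34.9). For 1 further macrophage marker the lower bound was at least 2-fold higher. Female-biased liver genes had a median of -1.63, with 8 of 12 at least 2-fold lower (summed level 102 and 37.8). Male-biased genes, a list that also holds Slco1a1, had a median of 0.70, with 3 of 9 at least 2-fold higher (summed level 174 and 224). The part of these lists in the liver differences of the bile acid genes was not tested.

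In wild-type animals, 9 of the 10 bile acid genes were at least 2-fold higher in liver than in WAT, against 15.6% of all genes, and Abcc4 was the exception. The same 9 genes were so in the labelled knockout, against 14.6% of all genes. Slc10a1 was 697-fold, Slc27a5 344-fold and Abcb11 272-fold higher in wild-type liver. Cyp7a1, Cyp8b1 and Baat were not well above background on either WAT array, and their wild-type liver levels were at least 407-fold, 146-fold and 258-fold higher. Here the bound sets the liver level against the higher of the lowest signal among probes well above background on the WAT array and the probe's own signal. Abcc3 was 31.5-fold and Cyp7b1 9.90-fold higher in liver, and Cyp27a1 in wild-type WAT stood at 5.56% of its liver level, and all 3 were well above background in WAT. Abcc4 was 2.40-fold higher in WAT than in liver in wild type (0.638 against 0.266 P75) and 1.38-fold higher in the labelled knockout (0.740 against 0.535 P75).

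In WAT 6 of the 10 genes were measured on both arrays. Against wild type, 3 of them were lower by at least 2-fold, as were 1.97% of all 15918 genes, 0 were higher by as much, as were 2.18%, and 3 were within 2-fold, a limit that 4.15% of all genes passed in either direction. The median log2 ratio of the 6 was -0.87, against 0.02 for all genes. Abcb11 read 0.148 P75 in the wild-type pool and 0.0406 P75 in the labelled-knockout pool, 3.65-fold lower (log2 ratio -1.87 ± 0.28). Slc27a5 read 0.182 and 0.594 P75 with its probes in wild type and 0.0547 and 0.199 P75 in the labelled-knockout pool, 3.15-fold lower (-1.66 ± 0.16). Abcc3 read 0.456 P75 in the wild-type pool and 0.173 P75 in the labelled-knockout pool, 2.64-fold lower (-1.40 ± 0.21). All 3 also had ratios below 0 in liver, but of at most 0.55 in size. Slc10a1 was well above background on the wild-type WAT array only and in the labelled-knockout pool lay lower by at least 1.99-fold. Abcb11 is dim in WAT, and its ratio was -1.03 with normexp and an offset of 50 and -1.43 with no offset. The ratio of Slc27a5 was -1.21 and -1.42 with these settings.

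The other 3 genes differed little in WAT. Cyp7b1 read 0.185 P75 in the wild-type pool and 0.145 P75 in the labelled-knockout pool (-0.35 ± 0.21). Abcc4 was at 0.21 ± 0.20 and Cyp27a1 at 0.22 ± 0.21. These were the genes with the highest WAT levels relative to liver.

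**Figure D5:**
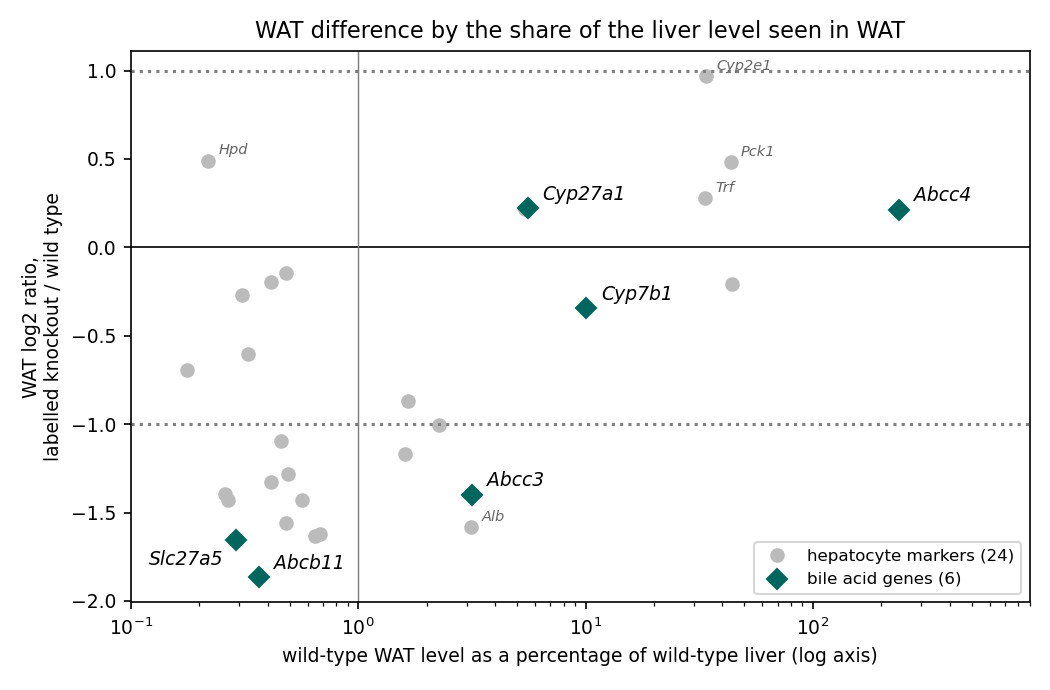
WAT log2 ratio of labelled knockout to wild type against the wild-type WAT level as a percentage of wild-type liver (log axis), for the 6 bile acid genes and 24 hepatocyte markers measured on both WAT arrays. The vertical line marks 1% and the dotted lines 2-fold. Slc27a5 and Abcb11 lie at the lower left, Slc27a5 (-1.66 ± 0.16) about level with the lowest hepatocyte marker (-1.63). Abcc3 lies beside Alb, and Cyp7b1, Cyp27a1 and Abcc4 lie to the right and near 0.

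Hepatocyte markers were lower along with these genes in WAT. In wild-type WAT all 25 were above background, at between 0.0882% and 44.2% of their liver level with a median of 0.493%, with a summed level of 285 P75. The sum was higher, at 350 P75, in the labelled-knockout pool, while most single markers were lower. It rests mostly on Trf, Rbp4, Cyp2e1 and Pck1, at 6.30, 6.04, 5.89 and 5.58 on the log2 scale in wild-type WAT. These stood at 33.6%, 44.2%, 34.0% and 43.5% of liver, with WAT log2 ratios of 0.28, -0.21, 0.97 and 0.48. The sum therefore says little about the other markers. Of 24 markers measured on both WAT arrays 12 were lower by at least 2-fold in labelled-knockout WAT, 0 were 2-fold higher, and the median log2 ratio was -0.94. Of all WAT genes 1.97% were at least 2-fold lower and 2.18% higher. The markers split by their WAT level, a split at 1% of liver that was chosen after the values were seen. Of 15 measured markers under 1%, 14 had ratios below 0 and 9 were at least 2-fold lower, with a median of -1.28. Of 9 at 1% or more, 3 were at least 2-fold lower, with a median of -0.21. This group holds Trf, Rbp4, Cyp2e1 and Pck1, and whether their RNA in WAT came from hepatocytes was not tested. Slc27a5, Abcb11 and Slc10a1 stood at 0.290%, 0.368% and 0.144% of liver in wild-type WAT. The 15 markers under 1% had ratios between -1.63 and 0.49, 14 of them below 0, so markers at a like share of liver differed in the size of the ratio. Among them, picked after their values were seen, F2, the prothrombin gene, stood at 0.480% with a ratio of -1.56, and Tat, a tyrosine-degrading enzyme, at 0.480% with -0.14. Hpd, of the same degradation pathway, stood at 0.218% with 0.49, the highest of the 15, and the other 14 were below 0. Abcc3 stood at 3.17% and Alb at 3.15%, with ratios of -1.40 and -1.58. The part of hepatocyte RNA in the lower WAT levels of these genes was not tested. Cyp27a1 and Cyp7b1 stood at 5.56% and 10.1% of liver, above the median hepatocyte marker but within the range of these markers. Abcc4, at 240%, stood above that range. Beside Cyp27a1, with its ratio of 0.22, lay the marker Apoc3, at 5.40% with a ratio of 0.22. Trf, Rbp4, Cyp2e1 and Pck1 stood higher than Cyp27a1 and Cyp7b1.

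Other lists differed between the WAT arrays as well, where 2.18% of all genes were at least 2-fold higher and 1.97% lower. Skeletal muscle markers had a median of 3.20 with 13 of 14 at least 2-fold higher in the labelled knockout (summed level 7.19 and 60.0), and thermogenic adipocyte markers a median of 1.57 with 8 of 9 (summed level 63.4 and 223). Adipocyte markers had a median of 0.19 with 1 of 14 at least 2-fold lower (summed level 1340 and 1520). Mammary and secretory epithelial markers had a median of 1.55 over 8 genes (summed level 1.92 and 9.46), with Csn2, Wap and Elf5 not well above background. Biliary markers had a median of 0.39 over 6 genes, and macrophage markers one of -0.60 over 14. The part of these lists in the WAT values of the bile acid genes was not tested.

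The further pathway genes split in WAT. Of 15 measured synthesis enzymes 3 had a ratio below 0, against 47.3% of all genes in WAT, and 12 were higher. Of these 2 reached 2-fold, as did 2.18% of all WAT genes as a higher level, and the median of the list was 0.26. Slc27a2, an acyl-CoA synthetase also used for long-chain fatty acids, was 4.03-fold higher, and Acox2, the peroxisomal oxidase of bile acid side chains, 2.12-fold higher (0.99 with normexp and an offset of 50, just under 2-fold). Hsd3b7 was at 0.61 ± 0.20, and Akr1d1 was not well above background. Against 1.97% of all WAT genes, 3 of 11 measured transporters were at least 2-fold lower, and the list had a median of -0.35. These were Slco1b2, a hepatocyte uptake carrier (3.35-fold), the sterol exporter Abcg5 (2.37-fold, but a log2 ratio of -0.53 with normexp and an offset of 50 and -0.78 with no offset) and the fatty acid binding protein Fabp1 (2.16-fold), at 0.364%, 0.268% and 1.31% of liver in wild-type WAT. The regulators had a median of -0.08 with 0 of 14 at 2-fold. Hnf4a, a hepatocyte transcription factor, was lowest (-0.91 ± 0.22), the fatty acid receptor Ppara highest (0.70 ± 0.12), and Nr1h4, Fgfr4 and Klb were at -0.02 (0.06 with normexp), -0.22 (0.04 with the brightest probe) and -0.16. Cyp3a11 was 4.31-fold lower (log2 ratio -2.11, or -1.81 with probes of several genes kept) and Cyp2b10 5.17-fold higher. As in liver, both values are uncertain as to the gene.

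The 250 bases before a start of Cyp8b1 and of Abcc4, the genes past 2-fold in opposite directions in liver, are shown from RefSeq on the GRCm38.p6 build, with matches to the motifs searched in capitals.
Cyp8b1, chr9:121916306-121916555, minus strand: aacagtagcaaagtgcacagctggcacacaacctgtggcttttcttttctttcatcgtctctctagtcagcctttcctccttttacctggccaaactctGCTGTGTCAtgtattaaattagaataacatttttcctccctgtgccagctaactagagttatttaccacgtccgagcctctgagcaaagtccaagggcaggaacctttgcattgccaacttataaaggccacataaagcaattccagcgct
Abcc4, chr14:118706220-118706469, minus strand: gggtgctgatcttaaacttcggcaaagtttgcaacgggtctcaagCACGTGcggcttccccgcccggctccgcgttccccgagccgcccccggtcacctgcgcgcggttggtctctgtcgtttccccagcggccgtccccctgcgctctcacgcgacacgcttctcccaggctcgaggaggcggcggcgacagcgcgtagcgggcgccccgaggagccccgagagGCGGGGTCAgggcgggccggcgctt
The motifs were AGGTCA (a nuclear receptor element), CAAGGTCA (the core bound by NR5A2, which overlaps the first), CACGTG (an E-box), TGACNNNGC (the core of the antioxidant response element) and TGATGCAA (a core bound by ATF4), on both strands. Promoter windows, which run on past the start of the gene, were available for 5 of the 10 genes, as 7 windows. TGACNNNGC occurred in windows of Cyp8b1 and Abcc4 and in 12.4% of all 32851 windows, and CACGTG in Abcc4 and in 7.15% of all. Abcc4 had a second window that is not shown. Its 250 bases before the start (chr14:118676932-118677181, minus strand) held 1 match, to TGACNNNGC. AGGTCA occurred in Abcb11 and Slc10a1 and in 16.3% of all. The other motifs, held by 1.56% and 0.895% of all windows, occurred in none of the 7. A match describes the letters of the window and no binding.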

How the data were processed

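Total RNA pooled from 5 animals per group was labelled with Cy3 (200 ng, per the labels) and read on 4 Agilent arrays on 1 slide. The deposited intensity values come from Agilent Feature Extraction 11.0.1.1, per the file headers. They were detrended for background and multiplicative trends and not normalized between arrays. A deposited table gives the authors' ratio of that signal to 1 constant per array (1470, 1764, 1690 and 1613), with column medians of 0.0737 to 0.0876, no centring and the same direction.

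Levels are log2 values of the processed signal after division by its 75th percentile over 43020 non-control spots. Outlier spots (79 to 110 per array) were left out and spots of a probe averaged. A probe counted as measured if the scanner flag placed over a 0.5 share of spots above background on each array compared, and probes of a gene were averaged. Probes were named through RefSeq (GRCm38.p6, names only): 27234 by accession, 3576 by symbol and 565 by synonym, while the other 8054 carry only the scanner file's own name and were not tested as genes. The 732 probes of several RefSeq genes were left out. The named genes were the 10 bile acid genes, 10 fixed pathway genes, and pathway genes at least 2-fold different or with the 2 largest ratios of their list. Members and lists were chosen with earlier results of these data known. Between-probe SD of a ratio was 0.20 in liver and 0.23 in WAT. The number of arrays limits the precision. Steps ran in Python 3.11.15, with limma 3.58.1 for normexp, and were tested on simulated data. In all, 8 other settings of normalization, background, filter and probe choice were run, plus 1 chosen after the data were seen.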

Additional observations from a re-analysis of the deposited data

Results flagged for a closer look

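Some genes had ratios of opposite sign in liver and WAT, with 1 array a group, so the difference between tissues was not tested. For Abcb4, Slc27a2 and Acox2 the liver ratio was smaller than its model error (0.14, 0.20 and 0.20), so its sign is uncertain. The difference is given as the WAT log2 ratio minus the liver log2 ratio. Cyp27a1 was at -0.26 in liver and 0.22 in WAT, a difference of 0.48. Its liver ratio was -0.19 with normexp and an offset of 50, level with the median of all liver genes. Hsd3b7 was at -0.57 and 0.61, a difference of 1.17. Abcb4 was at 0.11 and -0.43, a difference of -0.55. Slc27a2 was at -0.13 and 2.01, a difference of 2.14 (in liver it read 0.07 with quantile normalization). Acox2 was at -0.15 and 1.08, a difference of 1.24 (in liver it read -0.0009 with quantile normalization). Ppara was at -0.22 and 0.70, a difference of 0.92. Cyp2b10 was at -1.42 and 2.37, a difference of 3.79, with values that are uncertain as to the gene.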

How the results depend on the processing

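No paired analysis was possible because each group had 1 array. Of 54 summary values recomputed, 47 kept within 1.5 times (counts) or the between-probe SD (medians). The count of bile acid genes past 2-fold in liver went from 2 to 1 with normexp and an offset of 50, to 1 with normexp and no offset, and to 1 with quantile normalization, each time by Abcc4. The WAT median of -0.87 was -0.62 with normexp and an offset of 50, -0.48 with no filter on dim probes and -0.35 with probes of several genes kept, the last chosen after seeing the data. Without the dim filter 5 WAT genes passed 2-fold. The sign of each of the 16 single ratios held in all 9 alternatives, but several alternatives could change few of these ratios. Cyp8b1 in liver has 1 probe, measured on both arrays. Its ratio stayed at -1.38 with the brightest probe, no dim filter, outlier spots kept or probes of several genes kept. The authors' deposited ratios, from the same signal, also gave -1.38. With normexp, quantile normalization or a percentile over other probes, Cyp8b1 lay between -1.34 and -1.30. With normexp the median of all liver genes moved from -0.03 to -0.19 (offset 50) and -0.20 (no offset). The bile acid genes' median relative to it was -0.46, and -0.22 and -0.21 with these settings. Of the 10 genes 8 lay below the median of all liver genes, and 7 with each of these settings. The share of higher among genes past 2-fold in liver was 67.0%, and 29.8% and 7.11% with normexp. With no offset 1438 liver genes were at least 2-fold lower, against 132. The low WAT signal of Abcb11, Slc10a1, Cyp7a1, Cyp8b1 and Baat limits what can be read there.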
